A study of Mus musculus with 24 samples.

Results

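Adssl1 encodes the muscle-type isozyme of adenylosuccinate synthetase, an enzyme of the purine nucleotide cycle. It was followed with 9 other genes of purine nucleotide interconversion, Adss, Adsl, Ampd1, Ampd2, Ampd3, Gmps, Impdh1, Impdh2 and Hprt, in 7 mouse cell lines. The 10 genes were taken by name, and their probes were found through the transcript accession that the array tables give for each probe. They had 14 of the 56488 probes and made up 10 of the 45547 gene names measured. Adssl1 itself was selected on its measured log2 difference between lines D and M, so its values in every comparison that uses D or M are given as a description without a test.

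Total RNA was hybridised to 24 Agilent single-colour mouse arrays, 1 sample per array. The melanoma lines all derive from B16F1, a mouse melanoma line, carry GFP (green fluorescent protein) in their names and are called here M (B16F1-GFP-M, 3 arrays), D (B16F1-GFP-D, 4 arrays), DB#1 (4 arrays), DB#2 (3 arrays) and DB#3 (3 arrays). M is the parental line, D was recovered from a syngeneic mouse at a late stage of dormancy under immunotherapy, and the DB lines are a further generation recovered from the brain. The other 2 lines, M0 (4 arrays) and J365 (3 arrays), are labelled only as myeloid cells, and the labels do not say which leukemia line of the study each one is. All melanoma lines were grown as cultures in DMEM with serum before extraction, having been expanded in vitro after isolation, so that each line is a cultured derivative and not tissue. Whether arrays of a line came from separate cultures is not stated, so p-values measure the spread between these samples, which may be technical.

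The purine nucleotide cycle links 3 reactions. Adenylosuccinate synthetase joins IMP to aspartate, using GTP, and adenylosuccinate lyase splits the product into AMP and fumarate, so these steps also make AMP in purine synthesis. AMP deaminase returns AMP to IMP with release of ammonia, and the full cycle is known best from skeletal muscle, where Adssl1 and Ampd1 are the typical isozymes. IMP is also the branch point toward GMP, through IMP dehydrogenase and GMP synthetase, and can be regained from hypoxanthine by the salvage enzyme Hprt.

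The start regions of the synthetase isozyme genes are shown because the members' values turn on Adssl1, while its broadly expressed counterpart Adss was called in no comparison of melanoma lines. Both are RefSeq sequences of assembly GRCm38.p6 that run from 250 bases before to 50 bases after the transcript start, 5' to 3' on the gene's strand. The Adssl1 window is chr12:112619797-112620096 on the plus strand and the Adss window is chr1:177796460-177796759 on the minus strand. Capitals mark each match to GGGCGG on either strand, the core of the GC box bound by Sp factors.

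Adssl1: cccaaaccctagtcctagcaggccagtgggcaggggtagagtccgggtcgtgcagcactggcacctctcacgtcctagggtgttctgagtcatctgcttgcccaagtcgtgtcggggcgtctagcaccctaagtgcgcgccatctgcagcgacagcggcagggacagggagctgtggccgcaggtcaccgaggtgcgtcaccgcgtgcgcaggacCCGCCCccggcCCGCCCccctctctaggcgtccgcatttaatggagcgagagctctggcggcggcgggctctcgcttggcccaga

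Adss: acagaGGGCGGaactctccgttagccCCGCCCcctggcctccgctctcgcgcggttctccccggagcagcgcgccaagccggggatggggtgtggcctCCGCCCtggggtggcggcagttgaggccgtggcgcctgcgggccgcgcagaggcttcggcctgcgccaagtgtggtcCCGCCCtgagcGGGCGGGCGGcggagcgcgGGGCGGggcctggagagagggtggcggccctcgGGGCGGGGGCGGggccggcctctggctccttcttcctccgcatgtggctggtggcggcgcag

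The Adssl1 window held 2 matches to GGGCGG, at positions -35 and -24 from the start site and both on the opposite strand. The Adss window held 9, of which some share or adjoin bases, and had a GC content of 77.7% against 67.7% for Adssl1. GGGCGG was present in 35.7% of all 32851 promoter windows of this length. Neither window held CACGTG, 1 form of the E-box, which 7.15% of all windows held on either strand, or TATAAA, which 13.6% held. The wider E-box pattern CANNTG, with any middle bases, had 2 matches in the Adssl1 window and 3 in the Adss window. It was present in 72.3% of all windows. Of the Adss matches, 1 was CATGTG, which 14.2% of all windows held. Among the members CACGTG was found in the window of Impdh2 and in 1 of the 3 windows of Ampd3. RefSeq windows were at hand for 9 of the 10 members, and Ampd1 is named only. None of the 3 Ampd3 windows held GGGCGG. These matches describe the letters of the windows and were set against no binding data.

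Values below are normalized log2 signals, the log2 intensity of a probe less the 75th percentile of its array, so a difference of 1 is 2-fold. Levels of different genes are not compared, since each probe has its own response. Of the 24 arrays, 23 had between 43.6% and 53.8% of probes marked by the scanner software as well above background, while D replicate 3 had 89.9%. A list of 10 melanocyte genes averaged 5.85 to 6.93 on the melanoma arrays, and 12 blood cell genes averaged 1.71 to 2.23 on the myeloid arrays and -4.76 to -2.73 on the melanoma arrays. All 10 melanocyte genes were read on every melanoma array. On the myeloid arrays that list averaged -4.83 to -4.52. Tyr, Mitf and Sox10 were read on every myeloid array too, Mitf at means of 1.24 in M0 and 2.43 in J365. Of the 12 blood genes, 11 were read on every myeloid array and Cd33 on none. Itgam and Was were read on every melanoma array too, Itgam at line means of 2.75 to 3.01. The arrays lay on 3 slides, and each slide held every line. The members except Ampd1, 9 of 10, were well above background on all 24 arrays.

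Adssl1 was lowest in M and highest in the myeloid lines, with D, DB#1 and DB#3 in between and DB#2 close to M. In M the signal was -1.73, -1.39 and -0.79 on the 3 arrays. In D it was 2.58, 1.91, 1.21 and 1.61, so that the lowest D array lay above the highest M array. DB#1 had 2.61, 1.59, 1.67 and 1.57, while DB#3 had 1.89, 1.68 and 1.92. These lines overlapped with D and with each other and were all above M. In DB#2 it was -1.18, 0.09 and 0.03, with 1 array inside the range of M and none reaching D, DB#1 or DB#3. The myeloid arrays were the highest, at 3.41, 5.34, 4.99 and 4.66 in M0 and 3.75, 4.26 and 4.35 in J365.

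**Figure D1:**
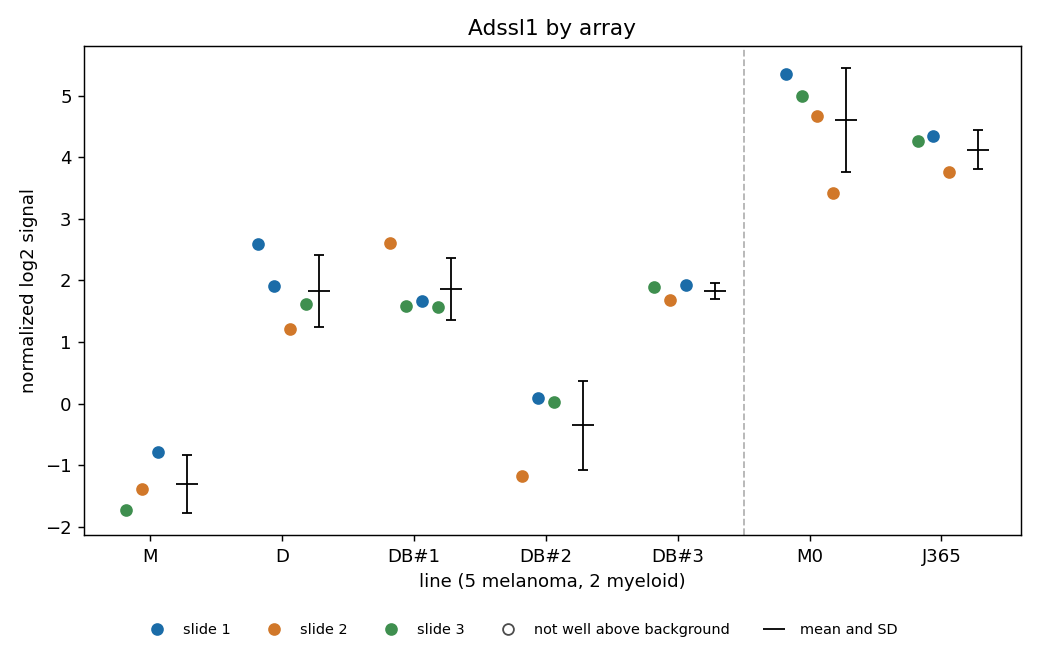
Normalized log2 signal of the Adssl1 probe on each of the 24 arrays (vertical axis) by line (horizontal axis), with points coloured by slide and the mean with SD at the right of each line. D, DB#1 and DB#3 lie between 1.21 and 2.61, above M and DB#2, which lie at or below 0.09, and below M0 and J365, which lie at or above 3.41.

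By line mean the order was M0 (4.60 ± 0.84, SD, n = 4), J365 (4.12 ± 0.32, n = 3), DB#1 (1.86 ± 0.50, n = 4), DB#3 (1.83 ± 0.13, n = 3), D (1.83 ± 0.58, n = 4), DB#2 (-0.36 ± 0.72, n = 3) and M (-1.30 ± 0.47, n = 3). The ranges of neighbours in this order did not overlap at 2 places, between J365 and DB#1 and between D and DB#2. As a description, D exceeded M by 3.13 on the log2 scale, or 8.77-fold, and by 3.34 without D replicate 3. DB#1 and DB#3 exceeded M by 3.16 and 3.14, and DB#2 exceeded M by 0.95. These differences share the M arrays. Within slides D minus M was 3.04, 2.60 and 3.34 on slides 1, 2 and 3, in the same direction throughout. The mean of the DB lines was 2.42 above M, and M was 5.91 below M0, a 60.0-fold difference.

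The comparisons among the DB lines asked whether melanoma lines of the same generation differ, and Adssl1 could be tested there because they set no M or D array against another. Adssl1 was 4.63-fold higher in DB#1 than in DB#2, with a log2 difference of 2.21 ± 0.41 (SE) and an adjusted p of 0.00195 (limma). It was 4.55-fold higher in DB#3 than in DB#2, at 2.19 ± 0.44 (SE) with an adjusted p of 0.00416. DB#1 and DB#3 did not pass the test, with a difference of 0.03 and a 95% interval of -0.84 to 0.89. Within slides DB#1 exceeded DB#2 by 1.58, 3.79 and 1.55 and DB#3 exceeded DB#2 by 1.83, 2.87 and 1.86. Without DB#1 replicate 1, the highest array of its line, the first difference was 1.96 with an adjusted p of 0.00934, and without DB#2 replicate 1, the lowest array of its line, the differences were 1.80 and 1.77 (adjusted p 0.0248 and 0.0401). In the myeloid lines J365 was not called against M0, at -0.48 with a 95% interval of -1.36 to 0.39, and the difference was below 0 within each slide, nearest to it at -0.28.

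Adss, which encodes the isozyme found in most tissues, had signals of 0.68, 0.33 and 0.45 in M and of 1.13, 0.81, 0.48 and 0.81 in D. Their ranges overlapped, and the difference of 0.32 was not called, with a 95% interval of -0.07 to 0.72 and an adjusted p of 0.589. DB#1 exceeded M by 0.40 (95% interval 0.01 to 0.80), which did not pass the adjusted test either (adjusted p = 0.381). Between the DB lines Adss differed by at most 0.11.

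Adsl encodes the lyase that follows the synthetase in the cycle and also acts in purine synthesis. Its signal lay between 7.34 and 8.06 on all melanoma arrays, and D minus M was -0.10 with a 95% interval of -0.44 to 0.23. Hprt, the salvage enzyme, was between 4.98 and 6.17 on the same arrays, both extremes being in D, with D minus M at 0.10 (95% interval -0.31 to 0.51). Neither gene was called in any comparison between melanoma lines.

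The AMP deaminase genes did not follow Adssl1. Ampd1, the muscle form, was well above background on 1 of 24 arrays, D replicate 3, the array on which most probes were. It was not tested. Its signal was -3.51 on that array and between -6.79 and -5.08 on the other 23. Marker lists of other cell types were all raised on that array. The skeletal muscle list of 14 genes averaged -2.56 there, with 13 of 14 read, and between -4.89 and -4.31 on the other melanoma arrays, while the blood list averaged -2.73 with 9 of 12 read and a fibroblast list -2.94 with 7 of 8 read. Myod1 and Myog, regulators that define the muscle lineage, were above background on 1 of the 17 melanoma arrays and Mb on none. On the myeloid arrays, where Adssl1 was highest, the muscle list averaged -3.46 to -3.16. There 6 of its 14 genes, Acta1, Actn2, Ckm, Mylpf, Pygm and Tnnt3, were above background on all 7 arrays, while Myod1, Myog and Mb were so on none. Mylpf and Pygm were read on all 17 melanoma arrays as well, whereas Ckm, the muscle creatine kinase, averaged 2.26 in M0 and 2.41 in J365 and was read on 1 melanoma array. The part of these genes in the Adssl1 result was not tested.

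Ampd2, a broadly expressed form, varied least of the members, with its brightest probe between 4.03 and 4.55 over all 24 arrays. It was lowest in DB#2 on average, and the difference from DB#1, 0.29 for DB#1 minus DB#2 (95% interval 0.03 to 0.56), did not pass the adjusted test (adjusted p = 0.226). Of its 2 dimmer probes, the dimmest also had its lowest melanoma mean in DB#2 (-1.93, against -1.88 to -1.64), and the other did not (1.39, against 1.25 to 1.46).

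Ampd3, the form known from erythrocytes, was higher in DB#2 than in the other lines. In DB#2 the brighter of its 2 probes read 2.15, 2.03 and 2.02. M had 0.24, 0.45 and 0.78. DB#1 had 1.25, 0.04, 0.18 and -0.01, while DB#3 had 0.71, 0.36 and 0.72. No array of another line reached DB#2, the nearest being D replicate 1 at 1.55, while the other D arrays read 0.10, -0.24 and -0.19. M0 read 0.28, 0.71, 0.49 and 0.44 and J365 read 1.01, 1.00 and 0.90.

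**Figure D2:**
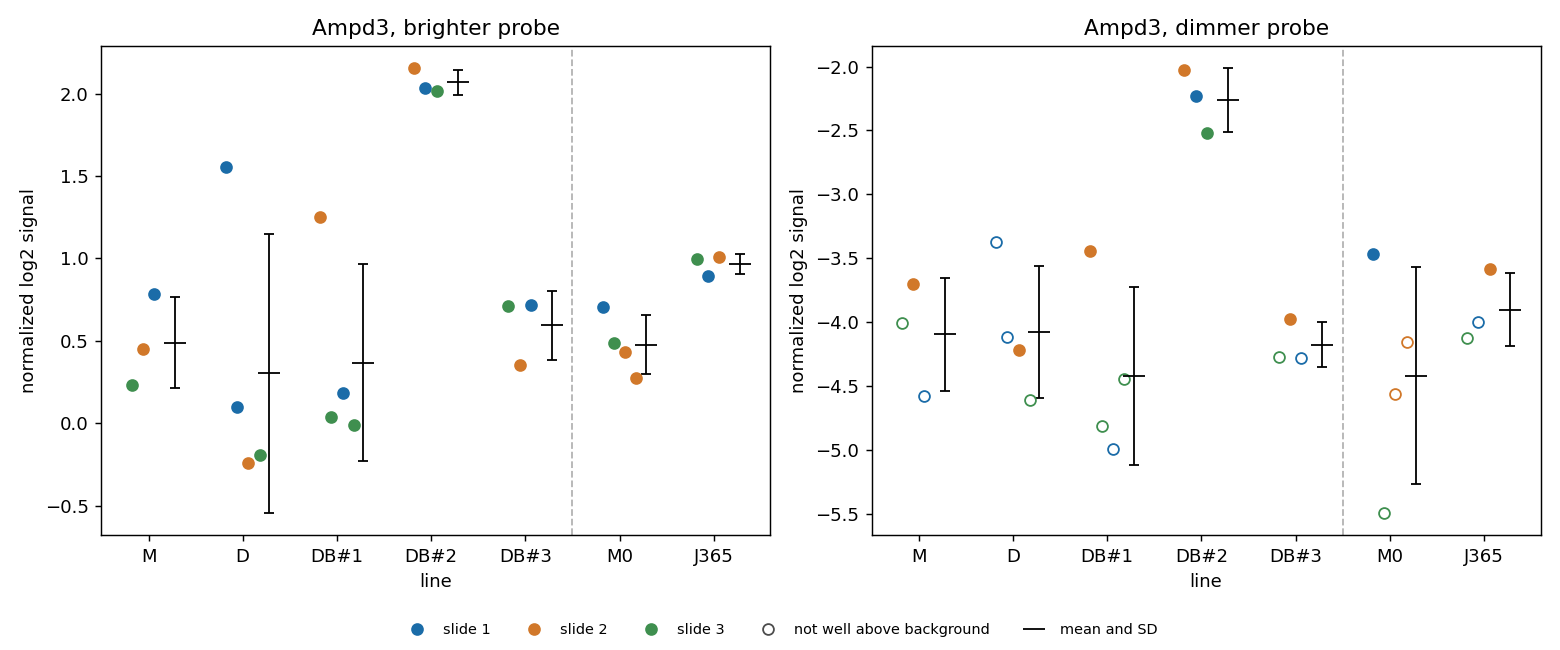
Normalized log2 signal of the brighter (left) and the dimmer (right) Ampd3 probe on each array by line, with points coloured by slide, open where the probe was not well above background, and the mean with SD at the right of each line. DB#2 is the highest line in both panels, and its 3 arrays are filled in both.

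Ampd3 was 2.98-fold higher in DB#2 than in M, with a log2 difference of 1.58 ± 0.36 (SE) and an adjusted p of 0.0127 (limma). DB#1 was 3.25-fold lower than DB#2 (-1.70 ± 0.33, adjusted p 0.00311) and DB#3 was 2.78-fold lower (-1.47 ± 0.36, adjusted p 0.0181). Within slides DB#2 exceeded M by 1.25, 1.70 and 1.78. The dimmer probe was well above background on all 3 DB#2 arrays, at -2.03, -2.23 and -2.52, and on 1 array of each other line, so no size of difference is given for it. Fibroblast markers also differed in DB#2, though not all in the same direction. The list of 8 averaged -4.38 to -4.24 there and -5.35 to -4.42 on the other melanoma arrays except D replicate 3. Dcn, Col1a1 and Col1a2 were read on all 3 DB#2 arrays and Pdgfra, Thy1, Lum, Col3a1 and Fap on none. Col1a2 was read on every array of the other melanoma lines as well. Pdgfra was lower in DB#2 (-5.49) than in M (-3.15), where it was read on all 3 arrays. Dcn, a matrix proteoglycan, averaged -1.31 in DB#2 and was read on no array of M, DB#1 or DB#3. The part of these markers in the DB#2 results was not tested. The call against DB#1 held under all 17 alternatives. The call against M was lost without M replicate 1, M replicate 2 or DB#2 replicate 1 (adjusted p = 0.0735, 0.0557 and 0.0587), and that of DB#3 against DB#2 held under 9 of 16 and was lost without any 1 of the DB#2 arrays (adjusted p = 0.0706, 0.0619 and 0.0577), without DB#3 replicate 4 (0.0914) and with replicate number as a block (0.168).

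On the branch toward GMP, the 2 genes of IMP dehydrogenase had their lowest means in M or DB#2. Impdh2, the isozyme linked to proliferating cells, read 5.68, 5.39 and 5.46 in M and 5.67, 5.39 and 5.28 in DB#2. It read 6.06, 5.86, 5.47 and 6.06 in D, 6.13, 6.14, 5.95 and 5.99 in DB#1 and 6.15, 5.93 and 5.95 in DB#3. All arrays of DB#1 and DB#3 lay above those of M and DB#2, and D overlapped with M through D replicate 3. M0 and J365 were higher again, between 6.36 and 7.33.

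None of these melanoma differences in Impdh2 passed the adjusted test. DB#1 minus M was 0.54 (95% interval 0.16 to 0.92, adjusted p = 0.136) and DB#1 minus DB#2 was 0.60 (95% interval 0.22 to 0.98, adjusted p = 0.0607). Same-numbered arrays of DB#1 and M deviated together, and with replicate number as a block DB#1 minus M was called, at 0.55 with an adjusted p of 0.0409. DB#1 minus DB#2 was called under 6 of 17 alternatives, among them slide as a block (0.58, adjusted p 0.0344). A second, dimmer Impdh2 probe gave 0.57 for DB#1 minus M and 0.60 for DB#1 minus DB#2.

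Impdh1, the other isozyme, read 1.67, 1.44 and 1.22 in M and 2.43, 2.33 and 2.03 in DB#3, with no overlap. DB#3 minus M was 0.82 (95% interval 0.34 to 1.30, adjusted p = 0.0622) and was called with slide as a block (adjusted p 0.00567). DB#1 minus M was 0.66 (adjusted p = 0.109), and it was called without DB#1 replicate 3 (0.82, adjusted p 0.037). Gmps, which turns XMP into GMP, was between 0.85 and 1.48 on the melanoma arrays, and no comparison between melanoma lines called it.

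**Figure D3:**
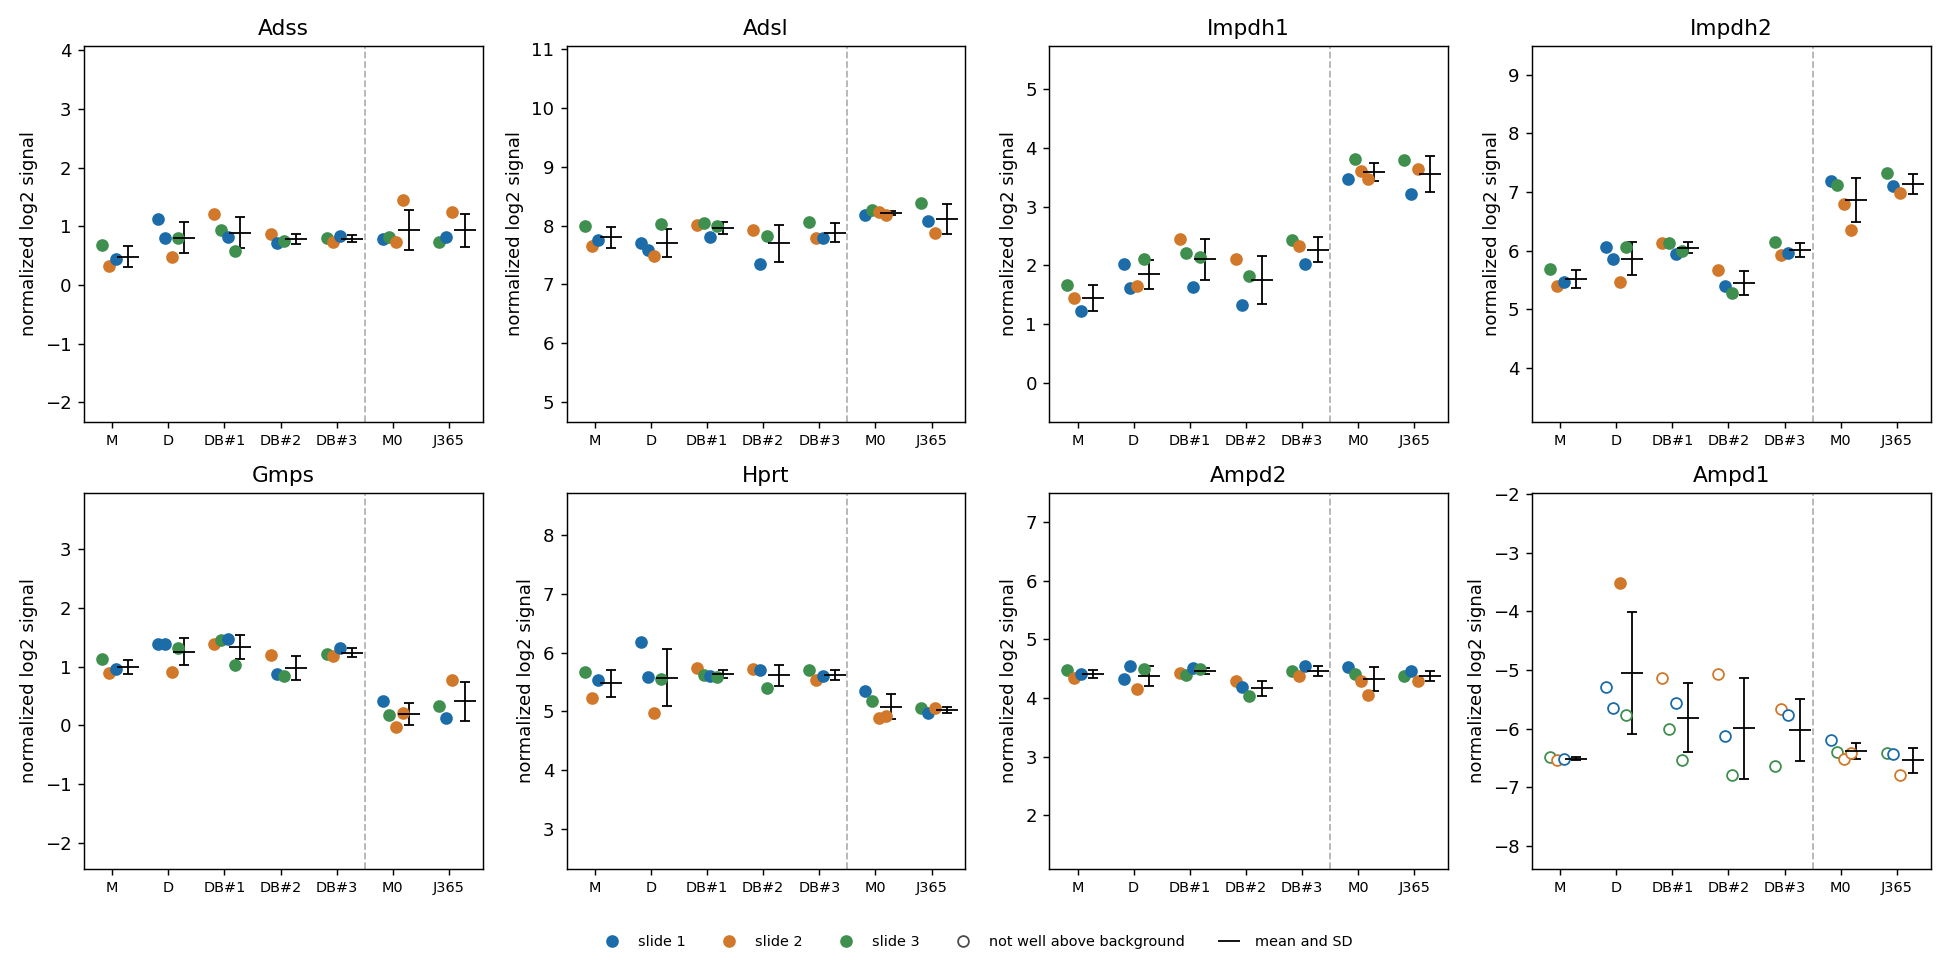
Normalized log2 signal of the other 8 members (brightest probe) on each array by line, with points coloured by slide, open where not well above background, and the mean with SD at the right of each line; all panels span the same number of log2 units around their own centre. Impdh1 and Impdh2 are higher in M0 and J365 than in the melanoma lines, Gmps is lower there, and Ampd1 is filled on 1 array, D replicate 3.

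Counted over the members other than Adssl1 that could be tested, 0 of 8 were called in D against M (limma), where 2.97% of all genes tested were called. Against M, 0 of 8 were called in DB#1 (background 3.69%), 1 of 8 in DB#2 (Ampd3, background 3.44%) and 0 of 8 in DB#3 (background 2.76%). At an unadjusted p under 0.05 there were 0 of 8 in D, 3 in DB#1, 1 in DB#2 and 2 in DB#3, where 11.7%, 12.7%, 12% and 9.9% of all genes tested lay. With Adssl1 included, 2 of 9 were called between DB#1 and DB#2 (background 5.47%) and 2 of 9 between DB#3 and DB#2 (background 4.44%). In both, 5 of 9 had an unadjusted p under 0.05, as did 16.1% and 14.1% of all genes. In each of these Adssl1 was lower and Ampd3 higher in DB#2, so that 1 of the 2 calls is that of Adssl1 itself. The DB#2 arrays are shared by both comparisons. Between DB#1 and DB#3, 0 of 9 were called, with a background of 0.229%, and 0 had an unadjusted p under 0.05, as 2.19% of all genes did. The median difference of the 8 members in D against M was 0.18, beside -0.01 over all genes tested.

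**Figure D4:**
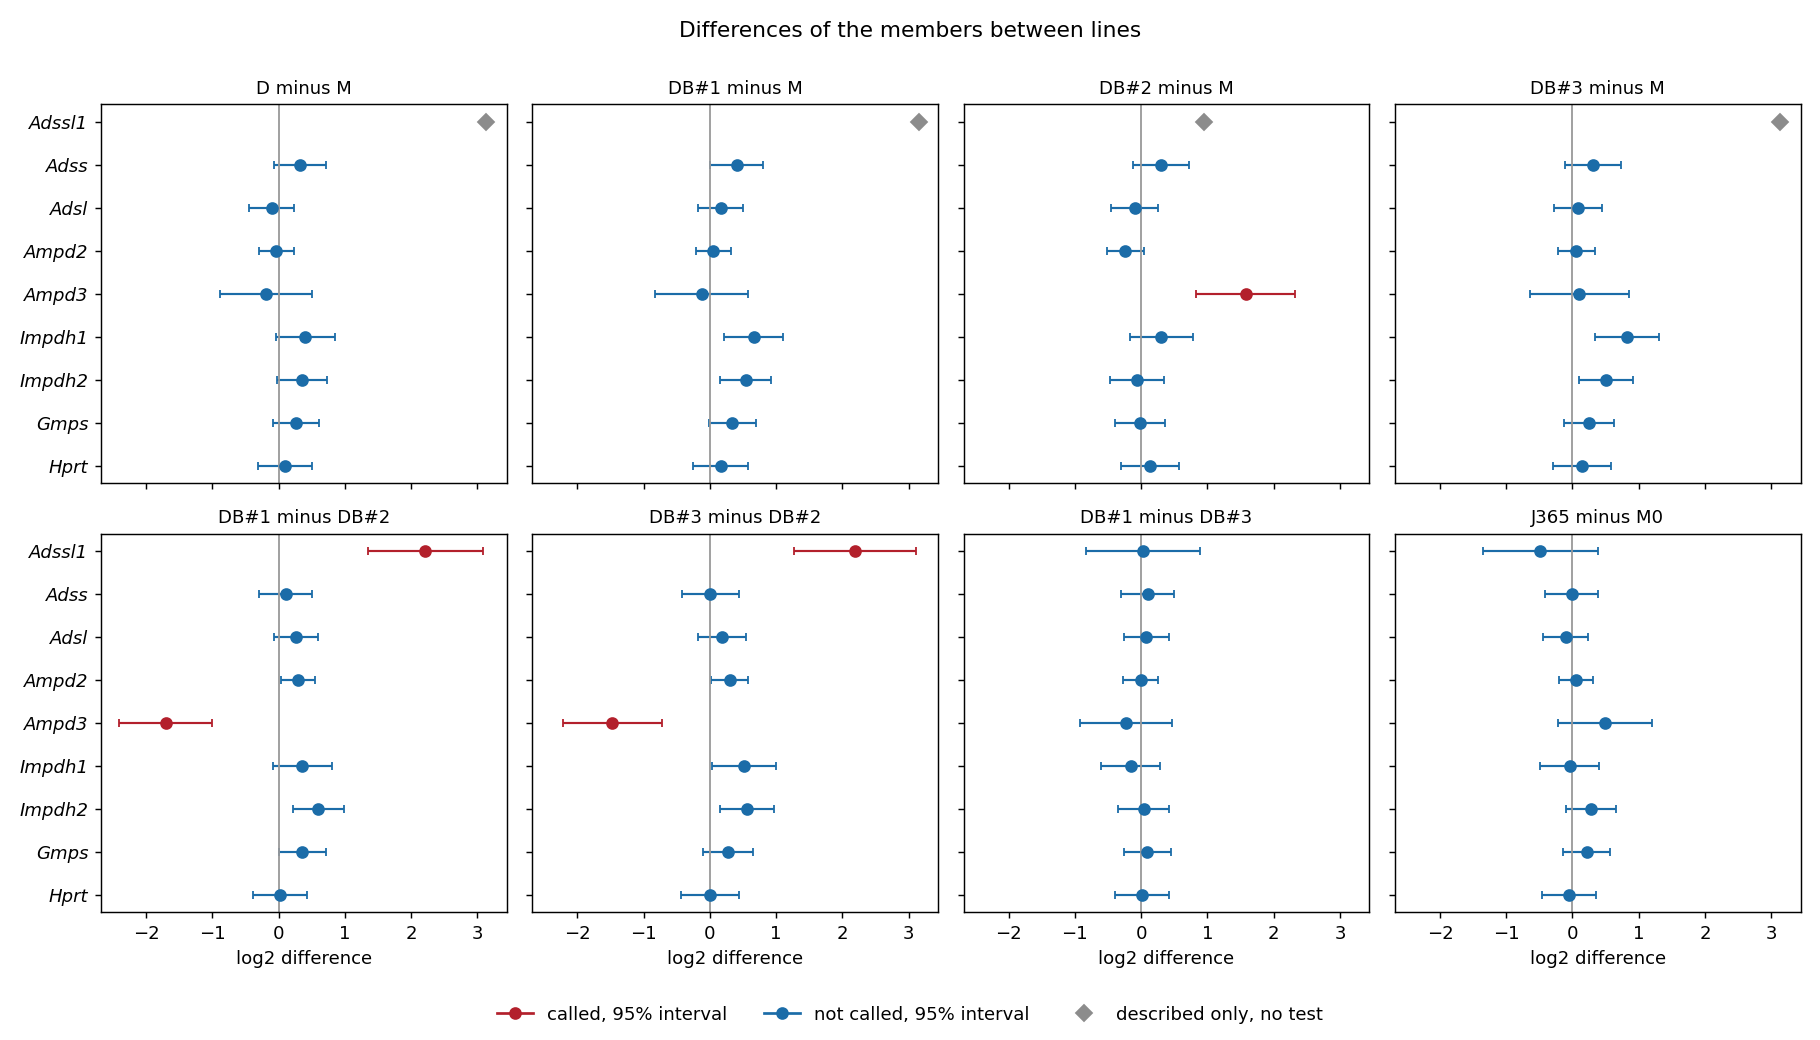
Log2 differences of the 9 readable members in 8 comparisons of lines, with 95% intervals from limma; red marks a call at an adjusted p under 0.05, blue no call, and grey diamonds the Adssl1 values that are described without a test. Adssl1 lies right and Ampd3 left of 0 in DB#1 minus DB#2 and DB#3 minus DB#2. In DB#2 minus M, Ampd3 is red and right of 0. No member is red between DB#1 and DB#3 or between J365 and M0.

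In the myeloid model, 0 of 9 members were called in J365 against M0, where 1.47% of all genes were called, and 0 had an unadjusted p under 0.05, as 8.68% of all genes did. The member differences there ran from -0.48 for Adssl1 to 0.49 for Ampd3. Whether D minus M differed from J365 minus M0 was tested directly, and 0 of 8 members other than Adssl1 were called (background 2.08%), and 0 had an unadjusted p under 0.05, as 9.45% of all genes did. For Adssl1 the difference between the models, given as a description, was 3.62.

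M and M0 differ in cell type, and 58.5% of all genes were called between them, so a call of a member is near the background there. Of 8 members, 5 were called, 1 higher and 4 lower in M, with a median of all genes of -0.13. Gmps was 1.74-fold higher in M (0.80 ± 0.17, SE, adjusted p 0.000407). Impdh1 was 4.43-fold lower (-2.15 ± 0.22, adjusted p 2.84e-08) and Impdh2 2.55-fold lower (-1.35 ± 0.18, adjusted p 2.27e-06), and these 3 calls held under all 17 alternatives. Adss (-0.46, adjusted p 0.0465) and Adsl (-0.41, adjusted p 0.034) were each called under 9 of 17 alternatives, and Adsl turned to 0.13 with quantile normalization. The Adss call was lost without M replicate 2, M replicate 3 or M0 replicate 4 (adjusted p = 0.157, 0.109 and 0.175), and the Adsl call without M replicate 2 or 3 or M0 replicate 2 or 3 (adjusted p from 0.0582 to 0.133).

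Around the cycle, 48 further genes of purine and aspartate metabolism were read as lists, and 39 of them were well above background on all arrays of some line. In D against M, 2 of 37 tested were called, both adenylate kinases and both higher, beside 2.97% of all genes called. Against M, DB#1 had 2 higher and 1 lower of 36 (3.69% of all genes called), and DB#3 had 3 higher and 1 lower of 37 (2.76%). The count over the lists in DB#2 against M is not reported here. DB#1 against DB#2 had 2 higher and 1 lower of 36 (5.47%), DB#3 against DB#2 had 3 higher and 1 lower of 37 (4.44%), and DB#1 against DB#3 had 0 of 36 called (0.229%). The median over these lists in D against M was 0.11, beside -0.01 over all genes. None of the 8 tested genes of de novo purine synthesis was called in any comparison of melanoma lines, and their median was 0.22 in D and 0.32 in DB#1 against M.

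Ak4, a mitochondrial adenylate kinase, had the pattern most like Adssl1 among the pathway genes. Its mean was -1.24 ± 0.19 (SD, n = 3) in M, 1.67 ± 0.28 (n = 4) in D, 1.25 ± 0.09 (n = 4) in DB#1, -0.70 ± 0.18 (n = 3) in DB#2 and 0.80 ± 0.41 (n = 3) in DB#3. M0 and J365 were higher, at 5.16 ± 0.67 (n = 4) and 4.95 ± 0.63 (n = 3). In D it was 7.53-fold above M (2.91 ± 0.30, SE, adjusted p 2.75e-06). DB#1 and DB#3 were 5.65-fold and 4.12-fold above M (adjusted p 1.3e-05 and 0.000434), and DB#2 was not called against M. DB#1 and DB#3 were also above DB#2, by 1.95 and 1.50 (adjusted p 0.000283 and 0.0075), the latter lost without DB#3 replicate 3 (adjusted p 0.0659).

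Ak5, another adenylate kinase, was well above background on all arrays of D and DB#3, on 3 of 4 of DB#1 and on none of M or DB#2. In the main processing it was at least 1.98-fold higher in D than in M (adjusted p 0.0067). It was at least 2.48-fold higher in DB#3 than in DB#2 (adjusted p 1.55e-06), where a bound is set by the dimmest readable signal of each array. These bounds do not hold for every alternative. The lowest log2 differences were 0.27 for D minus M, with normexp background correction, and 0.75 for DB#3 minus DB#2. The D call was lost under 5 of 16 alternatives, among them quantile normalization (0.48, adjusted p 0.714), the mean over its probes (0.73, adjusted p 0.502) and leaving out M replicate 3 (adjusted p 0.0528), and the DB#3 call with the mean over its probes (adjusted p 0.0577). Ak8 fell in DB#1 (-1.94, adjusted p 0.00397) and DB#3 (-1.85, adjusted p 0.0134) against M, being well above background on 2 of 4 and 2 of 3 of their arrays. Both calls were lost with quantile normalization (adjusted p = 0.073 and 0.18), and with normexp background correction the differences shrank to -0.81 (adjusted p 0.0151) and -0.67 (adjusted p = 0.102). The DB#3 call was also lost without M replicate 1 or DB#3 replicate 3 (adjusted p = 0.083 and 0.109).

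Ada, adenosine deaminase, was lowest in DB#2, at 0.46 to 0.84 against 1.85 to 1.91 in DB#1 and 1.94 to 2.12 in DB#3. DB#1 and DB#3 were 2.41-fold and 2.64-fold above DB#2 (adjusted p 0.000139 and 9.33e-05), and both calls held under every alternative run. Its calls in DB#1 and DB#3 against M (0.67 and 0.80, adjusted p 0.0488 and 0.027) were lost under 11 of 17 and 11 of 16 alternatives, among them those without any 1 array of either line compared (adjusted p from 0.0839 to 0.298 and from 0.0556 to 0.181).

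Got1, the cytosolic aspartate aminotransferase, was highest in DB#2 on average, at 6.02 to 6.25 against 4.82 to 5.28 in M, while D ran from 4.68 to 6.05 and overlapped with both. DB#2 was 2.13-fold above M (1.09 ± 0.25, SE, adjusted p 0.0121), a call lost without M replicate 2, M replicate 3 or DB#2 replicate 1 (adjusted p = 0.0799, 0.0578 and 0.0692). DB#1 and DB#3 were lower than DB#2 by 0.82 and 0.91 (-0.82 and -0.91, adjusted p 0.041 and 0.0366), calls that held under 8 of 17 and 9 of 16 alternatives. The first was lost without any 1 array of either line (adjusted p from 0.0591 to 0.162), and the second without any 1 DB#2 array or DB#3 replicate 4 or 5 (adjusted p from 0.0888 to 0.16). The 7 tested genes of the aspartate and fumarate side had a median of 0.51 in DB#2 against M, beside 0.11 over all the lists and 0.02 over all genes. Of these 7 genes 1 was called, beside 3.44% of all genes. Among those not called, Fh1, the fumarase, was at 0.52 (adjusted p = 0.0655) and Slc25a12, a mitochondrial aspartate and glutamate carrier, at 0.51 (adjusted p = 0.0702).

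**Figure D5:**
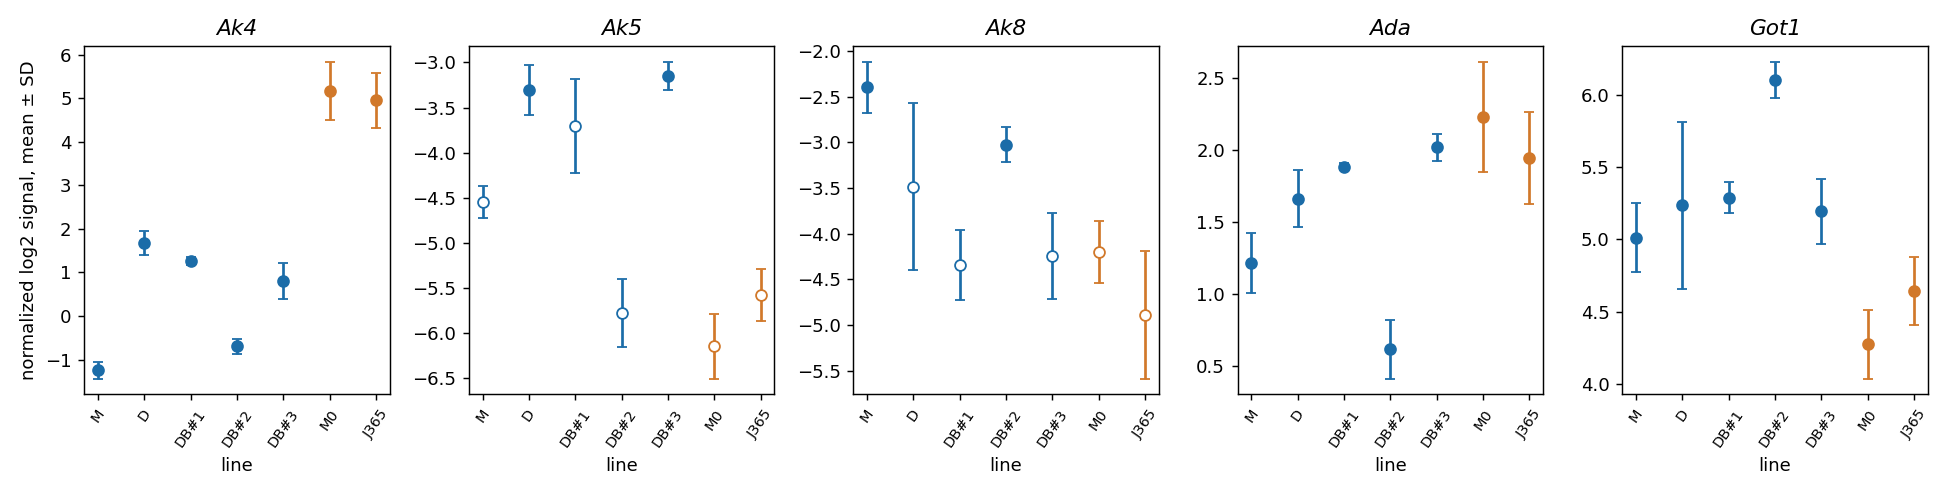
Mean normalized log2 signal with SD of Ak4, Ak5, Ak8, Ada and Got1 by line (melanoma blue, myeloid orange), open where the gene was not well above background on every array of the line. Ak4, Ak5 and Ada are lower in DB#2 than in DB#1 and DB#3, and Got1 is higher.

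In J365 against M0, 1 of 37 was called, beside 1.47% of all genes. It was Mtap, a salvage phosphorylase of methylthioadenosine, 1.73-fold higher in J365 (adjusted p 0.00641). The Mtap call was lost with only the arrays of J365 and M0 (adjusted p 0.164) and without J365 replicate 4 (adjusted p 0.0744). In the test of the difference between models, 1 of 39 was called, Ak4, at 3.13 ± 0.43 (SE, adjusted p 0.000138), beside 2.08% of all genes. Between M and M0, 12 were higher and 10 lower in M of 38, near the share of all genes called there, 58.5%. Lower in M were Gda, guanine deaminase, which was not well above background on any melanoma array, and Uox, urate oxidase. In the main processing Gda was at least 145-fold (adjusted p 3.1e-14) and Uox at least 4.50-fold (adjusted p 5.07e-05) higher in M0. These bounds do not hold for every alternative. Over the alternatives the log2 difference ran from -9.32 to -5.18 for Gda and from -4.33 to -1.33 for Uox, and both stayed called. Nt5c3, Ak1, Ak4, Prps1, Prps2, Ada, Pnp and Aprt were lower in M as well, from -0.74 for Pnp to -6.41 for Ak4. The higher ones were Nt5c2, Nt5c3b, Ak6, Ak8, Guk1, Got1, Got2, Mdh1, Slc25a13, Gart, Adal and Mtap, from 0.53 for Mtap to 2.10 for Slc25a13.

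The genes most like Adssl1 were taken by Pearson's r with it over the 24 arrays. They came from 14312 named genes well above background on all arrays of at least 1 line. They were S100a6 (0.968), Ak4 (0.958), Rbm38 (0.957), H2-DMb1 (0.954) and Rcn3 (0.950). The melanoma and myeloid arrays form separate clusters in all of them, so these values rest largely on the difference between cell types. Over the 17 melanoma arrays alone r was 0.917 for S100a6, 0.915 for Ak4, 0.905 for Rbm38, 0.885 for H2-DMb1 and 0.883 for Rcn3. The arrays share lines and slides, and no test was made. Rbm38 encodes an RNA-binding protein and Rcn3 a calcium-binding protein of the secretory pathway. In each of the 5 genes the M and DB#2 means were below those of D, DB#1 and DB#3. The genes were chosen for their r with Adssl1 on these arrays, so this order and the r values follow largely from that choice. H2-DMb1, a class II antigen loading subunit, was lower in DB#2 (-3.79 ± 0.43, SD, n = 3) than in M (-2.77 ± 0.49, n = 3), while S100a6, a calcium-binding protein, was -0.29 ± 0.84 and -2.38 ± 0.94 in the same lines.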

How the data were processed

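Per the labels and methods, cyanine 3-labelled RNA was read with Agilent Feature Extraction 10.7.3.1, and the authors deposited a linear intensity per spot (gProcessedSignal, background-corrected, not scaled between arrays). A deposited series table held the same values and served as the setting without scaling. Here control spots and spots marked as outliers were left out, with 117 of 56605 probes that then lacked a value on some array, log2 intensities were averaged per probe, and each array's 75th percentile was subtracted. Probes were named through RefSeq accessions (table of GRCm38.p6, names and promoters only; the array design uses mm9), with the brightest probe per gene. limma 3.58.1 (R 4.3.3; lmFit, eBayes, a term per line, 24 arrays, 17 residual degrees of freedom) tested genes that passed the background mark on all arrays of at least 1 of the lines compared, with Benjamini-Hochberg adjustment and calls at an adjusted p under 0.05. The code was tested on simulated data.

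The members and gene lists were chosen with earlier results of these data known. Text names the members, the listed pathway genes called, except 1 that is not reported here, and the 5 genes most correlated with Adssl1. Same-numbered arrays deviated together in DB#1 and M (3 pairs, r of deviations 0.57 to 0.91, from the labels' numbers, over genes), and in no other comparison with 3 pairs were all correlations over 0.1. Deviations also went with the slide, which the main fit left out. Pairs with other numbers had a mean r of 0.47 on the same slide and -0.25 on other slides. Replicate 3 of DB#1 and of M lay on slide 1, while their replicates 1 and 2 lay on different slides. On different slides, single pairs with other numbers ran from -0.79 to 0.80 and same-numbered pairs from -0.80 to 0.85. Whether the numbers pair the samples is not established. Replicate 4 of M0 and of J365 names an array without a number in its label, and these were left out of the replicate block. Alternatives were quantile normalization, normexp (offset 50, on the median spot signal because a mean column was not used here), a 75th percentile over probes readable on all arrays, no scaling, no filter on dim probes, slide or replicate number as a block, only the arrays of the lines compared, the mean over a gene's probes, and leaving out each replicate. The number of arrays, 3 or 4 per line, limits the precision.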

Additional observations from a re-analysis of the deposited data

Results flagged for a closer look

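In lines with 4 arrays, an array far from the other 3 was looked for in each member, and 4 of 30 member and line pairs had one by Dixon's ratio of gap to range, where chance gives about 1 in 20. In DB#1, replicate 1 was high both for Adssl1 (2.61, against 1.57 to 1.67 on the others) and for Ampd3 (1.25, against -0.01 to 0.18). Without it Adssl1 was 1.96 higher in DB#1 than in DB#2 and remained called (adjusted p 0.00934, limma). Adss was high on M0 replicate 4 (1.44, against 0.73 to 0.81), an array whose label carries no number. Gmps was low on D replicate 3 (0.91, against 1.33 to 1.39), the array with 89.9% of probes well above background.

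Ak4 differed between the models, since D minus M exceeded J365 minus M0 by 3.13 on the log2 scale (adjusted p 0.000138, limma).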

How the results depend on the processing

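Adssl1 kept its direction in D, DB#1, DB#2 and DB#3 against M under all alternatives, at 2.68 to 3.39, 2.69 to 3.42, 0.73 to 1.36 and 2.66 to 3.39, and stayed called in DB#1 and DB#3 against DB#2 under all 17 and 16 alternatives. The count of members called in D against M rose from 0 to 1 (Impdh2) with quantile normalization. In DB#1 against M it rose from 0 to 1 with quantile normalization, with the percentile over readable probes and with the replicate block (Impdh2), and with slide as a block (Impdh1), and was 0 to 1 when replicates were left out. In DB#3 against M it rose from 0 to 1 with quantile normalization (Impdh2) and with slide as a block (Impdh1). In DB#2 against M it was 0 to 1 and in DB#3 against DB#2 1 to 2 when replicates were left out, and the latter fell from 2 to 1 without the filter on dim probes and with the replicate block, in each case losing Ampd3, while it was 3 with quantile normalization and with the percentile over readable probes, gaining Impdh2 (adjusted p 0.0014 and 0.0198). In M against M0 it fell from 5 to 3 without the filter and with only these lines' arrays, losing Adss and Adsl, and was 3 to 5 when replicates were left out, while Hprt was gained with the percentile over readable probes and without scaling (adjusted p 0.024 and 0.0216). Adsl in M minus M0 turned from -0.41 to 0.13 with quantile normalization, under which the median of all genes was -0.12. The cause of these changes was not tested. With the replicate block, Ampd3 in DB#3 minus DB#2 was -1.18 (adjusted p 0.168), while the DB lines minus M for Adssl1 gave 2.49, and calls over all genes in DB#3 against DB#2 fell from 931 to 539. Only in DB#1 and M did all same-numbered arrays deviate together, and whether the numbers pair the samples is not established. Over all alternatives, calls over all genes ran from 135 (only the lines' arrays) to 1083 (slide block) in D against M, from 518 to 1163 in DB#1, 452 to 1255 in DB#2 and 398 to 809 in DB#3 against M, from 629 to 1965 in DB#1 and 539 to 1668 in DB#3 against DB#2, from 31 to 66 in DB#1 against DB#3, from 221 to 539 in J365 against M0, and from 275 to 765 in the difference between models. Leaving D replicate 3 out of the shared fit, chosen after seeing the data, called Impdh2 in DB#1 against DB#2 (adjusted p 0.031) and Hprt in M against M0, and ended no member's call. Without scaling, the median of all genes moved to 0.25 in DB#2 and 0.17 in D against M. Of 1443 recomputed member values, 1399 kept their side of the threshold, 24 lost and 19 gained a call, 1 (Adsl in M minus M0) changed direction and also lost its call, and 110 uncalled values near 0 changed sign. Of 685 values of the called pathway genes, 67 lost the call.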
